A study of Mus musculus with 8 samples.

Results

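The transcripts of 9 genes of Fc receptor signalling were followed in mouse neutrophils: the receptors for the Fc part of immunoglobulin G Fcgr1, Fcgr2b, Fcgr3 and Fcgr4, the subunit Fcer1g through which the activating receptors signal, and the tyrosine kinases Fgr, Lyn, Syk and Btk. They were taken by gene symbol as a named pathway, and all 9 were found among the 24421 genes of the count table and were among the 12254 genes tested. These genes and the lists below were chosen with earlier results of these data known. Counts set beside the share of all genes may therefore reflect that choice. Bone marrow neutrophils, isolated magnetically from 8-week-old C57BL/6 mice, female according to the methods of the study, came from wild type (WT) animals or from animals lacking exon 1 of Padi4 (Padi4 KO), the gene of a peptidylarginine deiminase that converts arginine to citrulline in histones. They were cultured for 6 h with 1 µg/ml of R848, a small agonist of Toll-like receptor 7, or left unstimulated, with 2 libraries in each of the 4 groups. The titles give the unstimulated libraries a time of 0 h, whereas the treatment protocol describes an unstimulated culture, so that if the titles hold, each R848 response also contains 6 h of culture. Samples were described as analysed in duplicate, and the labels do not say whether the 2 libraries of a group came from separate mice. The p-values therefore measure only the spread between these libraries, which may be technical.

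Fcγ receptors bind the constant part of IgG in immune complexes. Fcgr1 encodes the high-affinity receptor and Fcgr3 and Fcgr4 encode activating receptors of lower affinity, and all of these depend on the γ chain encoded by Fcer1g, whose ITAM tyrosines are phosphorylated by Src family kinases such as Lyn and Fgr and then recruit Syk. Fcgr2b encodes the inhibitory receptor, whose ITIM recruits the lipid phosphatase SHIP1, and Btk is a Tec family kinase that acts with Syk on phospholipase Cγ. In neutrophils this pathway is known for driving phagocytosis, the oxidative burst and degranulation upon contact with immune complexes.

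4 of the 9 genes lie within 276 kb of chromosome 1 (chr1:170958617-171234365, GRCm38, GENCODE annotation). In order they are Fcgr2b (chr1:170958617-170976547, minus strand), Fcgr4 (chr1:171018920-171029761, plus strand), Fcgr3 (chr1:171051174-171064935, minus strand) and Fcer1g (chr1:171229572-171234365, minus strand). The others are scattered, with Fcgr1 at chr3:96282909-96293969, Lyn at chr4:3678115-3813122, Fgr at chr4:132974095-133001910, Syk at chr13:52583173-52648792 and Btk at chrX:134542336-134583570. Fcgr2b, Fcgr4 and Fcer1g rose with R848 in both genotypes while Fcgr3, located between them, did not pass the test in either. Their start sites are therefore shown side by side, together with that of Fcgr1. Fcgr1 had the largest fitted fold change between the genotypes, though from very few counts in WT cells. The RefSeq sequences (GRCm38.p6) run from 250 bases before to 50 bases after the annotated start, on the strand of the gene, from chr1:170976022-170976321 (minus) for Fcgr2b, chr1:171018676-171018975 (plus) for Fcgr4, chr1:171234300-171234599 (minus) for Fcer1g, chr1:171059354-171059653 (minus) for Fcgr3 and chr3:96293920-96294219 (minus) for Fcgr1. Capitals mark matches to GAGGAA, the core bound by the myeloid factor PU.1, which reads TTCCTC when it lies on the other strand, and to TTCNNNGAA, the element bound by STAT factors.
Fcgr2b: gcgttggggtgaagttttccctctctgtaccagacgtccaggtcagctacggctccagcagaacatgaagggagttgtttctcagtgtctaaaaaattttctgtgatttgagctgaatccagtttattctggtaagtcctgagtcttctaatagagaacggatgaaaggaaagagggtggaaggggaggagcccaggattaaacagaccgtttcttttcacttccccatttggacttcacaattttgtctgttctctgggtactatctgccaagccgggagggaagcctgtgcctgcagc
Fcgr4: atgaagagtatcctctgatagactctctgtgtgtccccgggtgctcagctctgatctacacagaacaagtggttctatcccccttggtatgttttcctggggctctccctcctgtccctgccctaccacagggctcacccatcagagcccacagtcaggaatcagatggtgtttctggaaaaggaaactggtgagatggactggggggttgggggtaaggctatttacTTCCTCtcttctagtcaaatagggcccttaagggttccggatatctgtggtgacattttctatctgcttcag
Fcer1g: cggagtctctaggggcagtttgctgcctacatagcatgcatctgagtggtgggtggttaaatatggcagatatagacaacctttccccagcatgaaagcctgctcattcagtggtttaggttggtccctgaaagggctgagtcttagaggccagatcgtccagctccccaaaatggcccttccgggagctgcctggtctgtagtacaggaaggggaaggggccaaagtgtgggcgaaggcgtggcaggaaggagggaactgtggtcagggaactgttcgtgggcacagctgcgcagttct
Fcgr3: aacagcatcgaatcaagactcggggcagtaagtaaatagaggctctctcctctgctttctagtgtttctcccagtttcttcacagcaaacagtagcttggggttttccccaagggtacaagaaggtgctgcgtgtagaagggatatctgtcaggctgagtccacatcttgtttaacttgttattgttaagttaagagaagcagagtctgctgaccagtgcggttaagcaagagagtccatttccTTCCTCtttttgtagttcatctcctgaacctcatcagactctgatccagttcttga
Fcgr1: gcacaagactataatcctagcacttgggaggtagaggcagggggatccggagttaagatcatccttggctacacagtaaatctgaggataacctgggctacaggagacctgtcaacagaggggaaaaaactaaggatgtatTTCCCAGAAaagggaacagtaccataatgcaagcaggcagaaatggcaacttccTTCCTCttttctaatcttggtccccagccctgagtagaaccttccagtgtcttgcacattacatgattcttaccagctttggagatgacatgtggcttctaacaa

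Of the 9 genes, 8 had an entry in the promoter table, and Lyn had none. GAGGAA, searched on both strands, occurred in the first listed window of 5 of these 8 genes (Fcgr1, Fcgr3, Fcgr4, Fgr and Btk) and in a further window of Syk, and it occurred in 28.3% of all 27025 windows of the same length. It lay 22 to 17 bases before the start of Fcgr4 and 6 to 1 bases before the start of Fcgr3, but the windows of Fcgr2b and Fcer1g held no match. TTCNNNGAA was found in Fcgr1 alone, 109 to 101 bases before the start, and in 8.47% of all windows. The AP-1 element TGANTCA was found in no window of the 8 genes and in 7.93% of all windows. These are matches of letters and describe no binding.

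The Padi4 transcript itself followed the genotype labels. Its counts were 590 and 527 in the unstimulated WT libraries and 166 and 234 in the R848-treated WT libraries, against 40 and 54 in the unstimulated Padi4 KO libraries and 34 and 21 in the R848-treated ones. The libraries were shallow, with 562446 to 1177972 counts on genes, so that 3 counts corresponded to 2.55 to 5.33 counts per 1000000 counts on genes (CPM). The neutrophil label was borne out by its markers, since 11 of the 12 genes listed were in the table and all 11 had counts in every library, with a summed level of 123095 to 165758 CPM. Of these 11 markers, 10 were lower in unstimulated Padi4 KO than in unstimulated WT cells, against 14.4% of all genes tested, and 9 after R848, against 7.81%. The 8 erythroid markers summed to 9.83 to 34.3 CPM in the WT libraries and to 372 to 694 CPM in the Padi4 KO libraries, with both hemoglobin genes on the list at 0. In cell populations of this kind, fewer cells of a type and less RNA per cell cannot be told apart.

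Levels of different genes were compared as TMM-scaled CPM per kb of annotated exons. Fcer1g was the highest of the 9 in every group, at 771 ± 65.2 (SD, n = 2) in unstimulated WT and 528 ± 1.68 in unstimulated Padi4 KO neutrophils. Fcgr1 was the lowest, at 0.931 ± 0.373 and 4.22 ± 0.820. In unstimulated cells of both genotypes the order of these levels was Fcer1g, Fcgr3, Fgr, Lyn, Fcgr4, Syk, Btk, Fcgr2b and Fcgr1. Neighbours in this order did not overlap in their duplicates except Fcgr4 and Syk in Padi4 KO cells, and Syk came before Fcgr4 when the longest transcript was taken as the length. After R848 the level per kb of Fcgr4 was 266 ± 15.8 in WT and 262 ± 3.74 in Padi4 KO cells, which overlapped that of Fcgr3 in both. Fcgr2b, at 36.0 ± 4.06 and 36.2 ± 2.66, then stood above Btk, from which its duplicates were apart in WT but not in Padi4 KO cells.

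**Figure D1:**
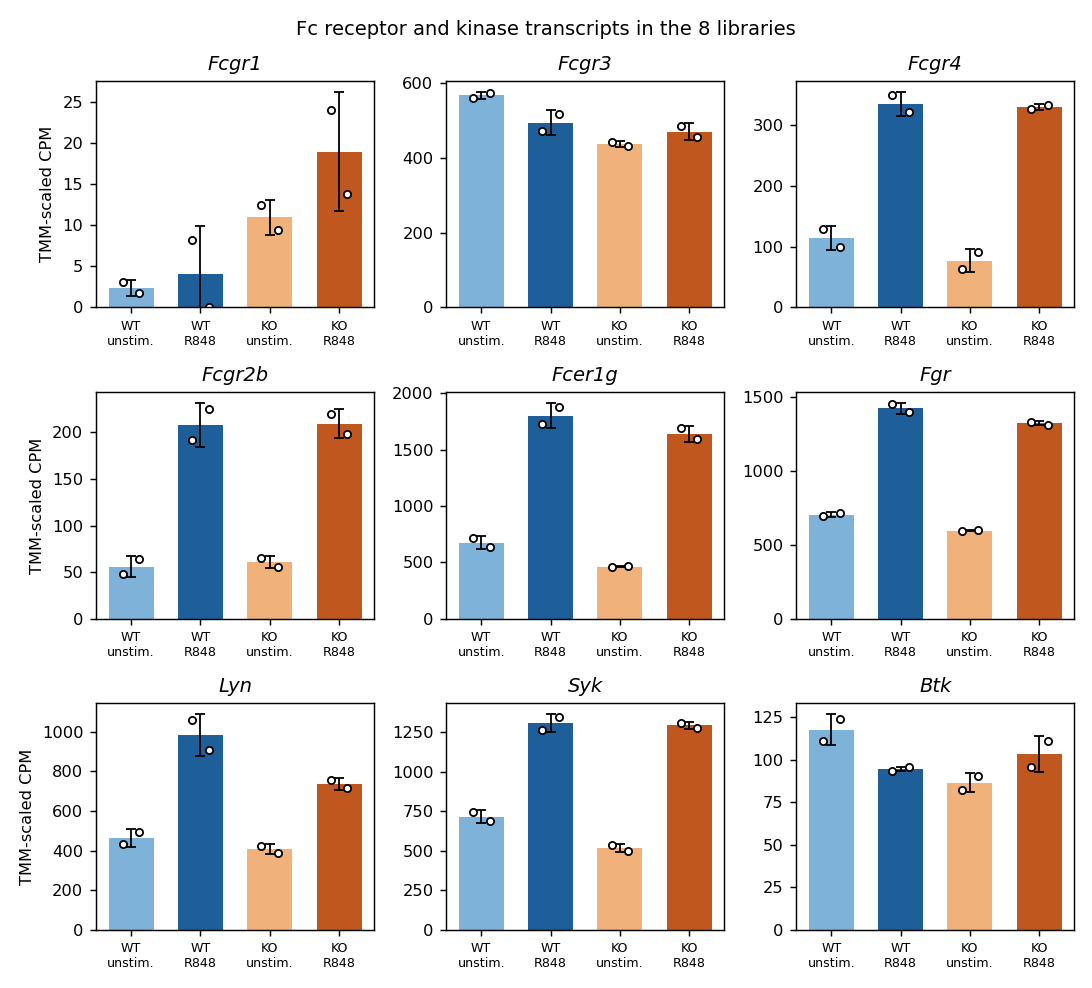
TMM-scaled CPM of the 9 genes in the 4 groups, with bars for the mean, error bars for the SD and 1 circle for each of the 2 libraries (the lower error bar of Fcgr1 in R848-treated WT is cut at 0). Fcgr4, Fcgr2b, Fcer1g, Fgr, Lyn and Syk are higher in both R848-treated libraries of each genotype, Fcgr3 and Btk stay within a narrow range, and Fcgr1 is higher in Padi4 KO libraries.

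To ask how the pathway changed with R848, stimulated and unstimulated libraries were compared within each genotype. In WT neutrophils 6 of the 9 genes rose at an adjusted p below 0.1, where 13.5% of all genes tested were higher, and 5 of them rose by over 2-fold, against 7.17% of all genes. In Padi4 KO neutrophils 7 of the 9 rose, against 19.2% of all genes, and again 5 by over 2-fold, against 8.07%. The test called 0 of the 9 lower in either genotype, while 16% and 15.9% of all genes were lower in WT and Padi4 KO cells. At an unadjusted p below 0.05, 0 of the 9 were lower. That mark was reached in either direction by 4052 of the 12254 genes in WT and 4576 in Padi4 KO cells. DESeq2 also called 6 higher and 0 lower in both genotypes, whereas library size alone called 2 lower in WT and 1 in Padi4 KO cells. Without unstimulated WT replicate 1, 3 genes rather than 5 rose by over 2-fold in WT cells. On the log2 scale the 9 genes had a median of 1.02 for WT cells and 1.15 for Padi4 KO cells, against -0.17 and -0.03 over all genes tested.

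Among the activating receptors the low-affinity members went separate ways. Fcgr4, the receptor for IgG2a and IgG2b, had 128 and 100 CPM in unstimulated and 349 and 320 CPM in R848-treated WT libraries. In Padi4 KO libraries it had 63.3 and 90.7 CPM without and 326 and 333 CPM with R848. Both stimulated libraries lay far above both unstimulated ones in each genotype, and Fcgr4 rose 2.90-fold in WT (log2 fold change 1.54 ± 0.15 SE, adjusted p = 6.69e-24, edgeR quasi-likelihood test) and 4.13-fold in Padi4 KO cells (2.05 ± 0.12, adjusted p = 1.90e-59). Fcgr3, the other low-affinity activating receptor, had 560 and 573 CPM before and 471 and 517 CPM after R848 in WT libraries, and 443 and 432 CPM before and 485 and 454 CPM after in Padi4 KO libraries. The duplicates did not overlap, being lower after R848 in WT and higher in Padi4 KO cells. Neither change passed the test (log2 fold change -0.19 ± 0.10, adjusted p = 0.165, and 0.10 ± 0.09, adjusted p = 0.416). With library size alone Fcgr3 passed as lower in WT (-0.50, adjusted p = 1.25e-05) and in Padi4 KO cells (-0.27, adjusted p = 0.0090). Of the 50-base stretches of annotated Fcgr3 transcripts, 9.58% are identical to Fcgr2b, and how reads from them were assigned was not tested.

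Fcgr1 was at the limit of this depth in WT cells. It had 2 and 1 counts in the unstimulated and 4 and 0 counts in the R848-treated WT libraries, and the ratio of the summed counts, scaled for library size, was 1.55 with an exact 95% interval of 0.262 to 10.6. In Padi4 KO libraries it had 11 and 13 counts before and 27 and 15 after R848, a ratio of 1.79 with an interval of 1.06 to 3.09. The duplicates overlapped in WT and not in Padi4 KO cells. The fitted change in Padi4 KO cells passed the test (log2 fold change 0.83 ± 0.38, adjusted p = 0.0876) but fell to 0.23 (adjusted p = 0.803) without Padi4 KO R848 replicate 1 and to 0.61 (adjusted p = 0.439) without unstimulated replicate 2, and it was also lost without either R848-treated WT library (0.69 and 0.70, adjusted p = 0.155 and 0.147). It was further lost with DESeq2 (0.72, adjusted p = 0.645), relative log expression factors (0.75, adjusted p = 0.132) and library size alone (0.45, adjusted p = 0.377). These intervals cover counting error only.

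The inhibitory receptor Fcgr2b rose to nearly the same level in both genotypes. Its level was 47.9 and 63.9 CPM in unstimulated and 192 and 225 CPM in R848-treated WT libraries, and 65.6 and 55.9 CPM and then 220 and 199 CPM in Padi4 KO libraries. All stimulated libraries were above all unstimulated ones, with a 3.76-fold rise in WT (log2 fold change 1.91 ± 0.19, adjusted p = 8.28e-22) and a rise by 1.81 ± 0.14 on the log2 scale in Padi4 KO cells (adjusted p = 7.93e-35). Fcer1g, the γ chain shared by the activating receptors, went from 714 and 634 CPM to 1722 and 1880 CPM in WT and from 460 and 462 CPM to 1688 and 1589 CPM in Padi4 KO libraries. Its groups were apart by several times the spread between duplicates, and it rose 2.67-fold in WT (1.42 ± 0.08, adjusted p = 3.33e-63) and 3.55-fold in Padi4 KO cells (1.83 ± 0.08, adjusted p = 6.49e-118). An antisense gene, Gm38204, shares 155 bases of exon with Fcgr2b, and whether the counting used strand is not stated.

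Of the kinases, Fgr, Lyn and Syk rose in both genotypes and Btk did not pass the test in either. Fgr, a Src family kinase of myeloid cells, had 694 and 717 CPM before and 1451 and 1400 CPM after R848 in WT libraries, and 592 and 597 CPM before and 1334 and 1313 CPM after in Padi4 KO libraries. The duplicates were close together and the groups well apart. Fgr rose 2.02-fold in WT (log2 fold change 1.02 ± 0.08, adjusted p = 1.63e-31) and 2.22-fold in Padi4 KO cells (1.15 ± 0.08, adjusted p = 6.64e-49). Lyn, the Src family kinase that also phosphorylates the ITIM of inhibitory receptors, had 431 and 496 CPM before and 1058 and 907 CPM after R848 in WT libraries, and 425 and 389 CPM before and 757 and 714 CPM after in Padi4 KO libraries. The stimulated WT libraries were the highest of the 8. Lyn rose 2.12-fold in WT (1.08 ± 0.09, adjusted p = 1.00e-28) and 1.82-fold in Padi4 KO cells (0.86 ± 0.08, adjusted p = 1.04e-22). Lyn shares 248 bases of exon with Gm26857 on the opposite strand and 18.3% of its 50-base stretches with other genes, mostly Gm11787.

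Syk, which docks on phosphorylated ITAMs, had 745 and 689 CPM before and 1268 and 1349 CPM after R848 in WT libraries. In Padi4 KO libraries its level was 537 and 498 CPM before and 1310 and 1280 CPM after. The unstimulated Padi4 KO libraries were the lowest of the 8 while the stimulated libraries of both genotypes overlapped. Syk rose 1.82-fold in WT (log2 fold change 0.87 ± 0.09, adjusted p = 8.28e-23) and 2.51-fold in Padi4 KO cells (1.33 ± 0.08, adjusted p = 2.94e-62). Btk, counted at 46 to 125 in each library, had 111 and 124 CPM before and 93.8 and 95.6 CPM after R848 in WT libraries, and 82.5 and 90.7 CPM before and 96.0 and 111 CPM after in Padi4 KO libraries. The duplicates did not overlap in either genotype, with lower values after R848 in WT and higher values in Padi4 KO cells. The log2 fold changes of -0.31 ± 0.20 (adjusted p = 0.272) and 0.24 ± 0.15 (adjusted p = 0.239) did not pass. With library size alone Btk passed as lower in WT cells (-0.61, adjusted p = 0.0080).

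Monocytes and macrophages also express these receptors, and the summed level of 12 of their markers moved with the treatment, which was 1513 to 1616 CPM in unstimulated and 3932 to 4179 CPM in R848-treated WT libraries, and 2161 to 2164 and 3777 to 3905 CPM in Padi4 KO libraries. Of 11 markers tested, 5 rose and 4 fell in each genotype. Of all genes, 13.5% rose and 16% fell in WT cells, and 19.2% and 15.9% in Padi4 KO cells. Adgre1 carried much of the rise, with 22 to 47 counts in unstimulated and 1240 to 2091 counts in stimulated libraries, whereas Ccr2 went from 26 and 43 to 14 and 15 counts in WT libraries, and Ms4a7 was at 0 in all but 1 library. The 10 B cell markers summed to at most 23.1 CPM in any library, and the mast cell receptor genes Fcer1a and Ms4a2 had at most 1 count. The 8 mast cell and basophil markers together summed to 850 CPM in both unstimulated and 1582 to 1588 CPM in R848-treated WT libraries, and to 822 to 845 and 669 to 734 CPM in Padi4 KO libraries. The histidine decarboxylase gene Hdc, with 439 to 1035 counts, made up most of the sum, and Kit had 10 to 28 counts. With TMM factors, 1 of these 8 rose in WT cells, and 1 (Hdc) rose and 1 (Kit) fell in Padi4 KO cells. The sums are scaled by the library total, and the 2 scalings go opposite ways for Hdc in Padi4 KO cells, where its TMM-scaled mean was 632 CPM before and 711 CPM after R848. The methods describe the magnetically isolated cells as CD11b+ Ly6G+ neutrophils of high purity. The part of monocytes or mast cells in the responses was not tested.

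Ratios of counts between 2 of the genes within a library do not depend on the scaling, and the pairs shown were chosen after the values were seen. The ratio of Fcgr3, the most abundant activating receptor before stimulation, to the inhibitory Fcgr2b was 11.7 and 8.97 in unstimulated WT libraries and 6.76 and 7.73 in unstimulated Padi4 KO libraries. After R848 it was 2.46 and 2.30 in WT and 2.20 and 2.29 in Padi4 KO libraries. The ratio of the neighbouring genes Fcgr4 and Fcgr3 went from 0.229 and 0.175 to 0.740 and 0.620 in WT libraries and from 0.143 and 0.210 to 0.672 and 0.733 in Padi4 KO libraries. Both ratios thus separated stimulated from unstimulated libraries with no overlap, and the stimulated libraries of the 2 genotypes lay close together. The ratio of Lyn to Syk behaved otherwise. It was 0.579 and 0.719 before and 0.834 and 0.672 after R848 in WT libraries, where the duplicates overlapped, and 0.792 and 0.781 before and 0.578 and 0.558 after in Padi4 KO libraries, which did not.

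**Figure D2:**
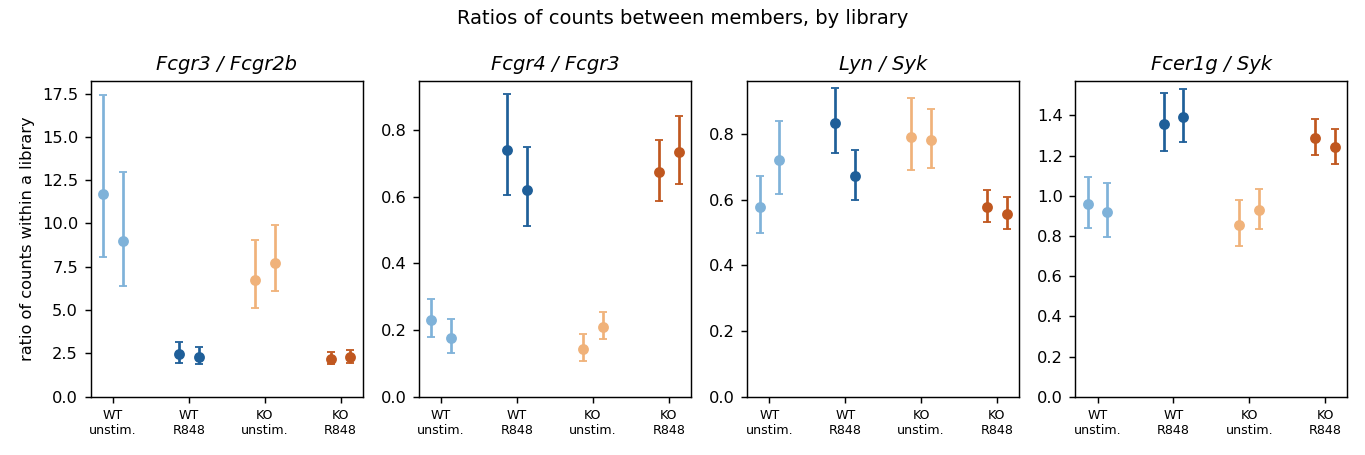
Ratios of counts of Fcgr3 to Fcgr2b, Fcgr4 to Fcgr3, Lyn to Syk and Fcer1g to Syk in each library (points) with exact 95% intervals from the 2 counts, which cover counting error only. The ratio of Fcgr3 to Fcgr2b lies between 6.76 and 11.7 without and between 2.20 and 2.46 with R848, and the ratio of Lyn to Syk is lowest in the R848-treated Padi4 KO libraries, at 0.578 and 0.558.

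Whether the response itself differed between the genotypes was tested as the interaction of genotype and R848. Fcer1g and Syk passed, both with a larger rise in Padi4 KO cells, by 0.41 ± 0.11 on the log2 scale for Fcer1g (adjusted p = 0.0171) and by 0.46 ± 0.12 for Syk (adjusted p = 0.00546). These were 2 of the 9 genes, against 3.45% of all genes that were higher, and 5 of the 9 were higher at an unadjusted p below 0.05, a mark that 1638 of the 12254 genes reached in either direction. The test called 0 of the 9 lower, against 1.26% of all genes, a share too small for 0 of 9 to differ from it. At an unadjusted p below 0.05, 0 of the 9 were lower as well. The differences of the others were 0.51 ± 0.20 for Fcgr4 (adjusted p = 0.176), 0.55 ± 0.25 for Btk (0.262), 0.30 ± 0.13 for Fcgr3 (0.271), -0.22 ± 0.13 for Lyn (0.469), 0.14 ± 0.11 for Fgr (0.677), -0.10 ± 0.26 for Fcgr2b (0.958) and 0.23 ± 1.34 for Fcgr1 (1.00). The median of the genes with a mean of at least 10 counts was 0.18 for this contrast with TMM factors and 0.02 with relative log expression factors. With the latter, the differences were 0.26 for Fcer1g (adjusted p = 0.324) and 0.31 for Syk (0.175), and Lyn passed in the other direction (-0.38, adjusted p = 0.0994). DESeq2 called none of the 3 (adjusted p = 0.527 for Fcer1g, 0.377 for Syk and 0.341 for Lyn), and library size alone called Syk but not Fcer1g. Relative to the median the differences of Fcer1g, Syk and Lyn were 0.23, 0.28 and -0.40 with either set of factors. Both calls were lost without unstimulated WT replicate 1, unstimulated Padi4 KO replicate 2 or any 1 of the 4 R848-treated libraries, where Fcer1g ranged from 0.08 to 0.41 and Syk from 0.15 to 0.40. Without unstimulated Padi4 KO replicate 2, Fcgr4 passed instead, with a larger rise in Padi4 KO cells (0.83, adjusted p = 0.0570). Lyn passed with a smaller rise in Padi4 KO cells without WT R848 replicate 1 (-0.38), WT R848 replicate 2 (-0.56) or Padi4 KO R848 replicate 1 (-0.50).

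Padi4 KO and WT neutrophils were next compared without stimulation. Fcer1g and Syk were lower in Padi4 KO cells, at 460 and 462 against 714 and 634 CPM and at 537 and 498 against 745 and 689 CPM, with log2 fold changes of -0.55 ± 0.09 (adjusted p = 1.98e-08) and -0.48 ± 0.09 (adjusted p = 1.12e-06). Fcgr3 (-0.37 ± 0.09, adjusted p = 0.000782), Fcgr4 (-0.53 ± 0.17, adjusted p = 0.0140), Fgr (-0.24 ± 0.09, adjusted p = 0.0267) and Btk (-0.43 ± 0.17, adjusted p = 0.0591) were lower as well, which made 6 of the 9 genes lower, against 14.4% of all genes. In the same comparison 10 of the 11 neutrophil markers were lower, and the erythroid markers summed to 33.8 to 34.3 CPM in WT and to 372 to 381 CPM in Padi4 KO libraries. Their part in these differences was not tested. Fcgr2b, whose duplicates overlapped between the genotypes, had a log2 fold change of 0.11 ± 0.22 (adjusted p = 0.814). Lyn had -0.19 ± 0.10 (adjusted p = 0.167), and neither passed. Fcgr1 was the 1 gene that was higher, against 9.55% of all genes, at a ratio of 4.33 from 3 summed counts in WT and 24 in Padi4 KO libraries (95% interval 1.32 to 22.5, adjusted p = 0.0351).

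The median of the genes with a mean of at least 10 counts was itself at -0.16 in this comparison, and relative to it the differences were -0.39 for Fcer1g, -0.32 for Syk, -0.37 for Fcgr4, -0.27 for Btk, -0.21 for Fcgr3, -0.08 for Fgr and -0.03 for Lyn. DESeq2 called 2 genes lower, Fcer1g and Syk, and 0 higher, and relative log expression factors 4 lower, without Fgr and Btk. With library size alone Fcer1g was the 1 member called lower (-0.26), and the values of Fgr (0.04) and Lyn (0.10) changed sign. Leaving out any single library gave 3 or 4 lower members, and Fcgr3, Fcer1g and Syk were among them each time. Btk was lost in all 8 removals (-0.51 to -0.28) and Fgr in all but that of unstimulated WT replicate 1 (-0.27 to -0.10). Fcgr4 ranged from -0.85 to -0.33 and passed in 3, those of unstimulated WT replicate 2, unstimulated Padi4 KO replicate 2 and WT R848 replicate 1. The call of Fcgr1 was lost without either unstimulated WT library or without Padi4 KO replicate 1, and with DESeq2 (2.21, adjusted p = 0.248). Its log2 fold change ranged from 1.73 to 2.52 over the 8 removals. The monocyte and macrophage markers summed to 1513 to 1616 CPM in unstimulated WT and 2161 to 2164 CPM in unstimulated Padi4 KO libraries. Of the 11 tested, 4 were higher and 1 was lower in Padi4 KO cells, against 9.55% and 14.4% of all genes. Ccr2 had 26 and 43 counts in the WT and 148 and 229 in the Padi4 KO libraries and F13a1 had 107 and 109 against 327 and 517, whereas Ly6c2 was the lower one (log2 fold change -0.27, adjusted p = 0.00577). The part of such cells in the level of Fcgr1 was not tested.

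After R848, 2 of the 9 genes passed between the genotypes. Fcgr3 (log2 fold change -0.08 ± 0.10), Fcgr4 (-0.02 ± 0.11), Fcgr2b (0.0025 ± 0.13) and Syk (-0.02 ± 0.08) overlapped between the genotypes. Fcer1g (-0.14 ± 0.07, adjusted p = 0.240), Fgr (-0.11 ± 0.08, adjusted p = 0.443) and Btk (0.13 ± 0.18, adjusted p = 0.722) did not pass. With relative log expression factors Fcer1g (-0.24, adjusted p = 0.0103) and Fgr (-0.21, adjusted p = 0.0436) passed as lower. Over the removal of single libraries they ranged from -0.34 to -0.13 and from -0.23 to -0.10. Lyn was the 1 member that was lower in Padi4 KO cells, against 7.81% of all genes, with 757 and 714 CPM against 1058 and 907 CPM in WT libraries (log2 fold change -0.41 ± 0.08, adjusted p = 2.14e-05). It also passed with DESeq2 (-0.51, adjusted p = 0.000612) and without any single library (-0.61 to -0.41), but not with library size alone (-0.20, adjusted p = 0.106). Fcgr1 was the 1 member that was higher, against 9.46% of all genes, with 27 and 15 against 4 and 0 counts, a ratio of 5.01 (95% interval 1.82 to 19.2, adjusted p = 0.00370), and a fitted log2 fold change of 2.28. The call was lost with DESeq2 at a similar value (2.19, adjusted p = 0.199), without WT replicate 2 (1.12, adjusted p = 0.375) or without Padi4 KO replicate 1 (1.71, adjusted p = 0.153). Without WT replicate 1 the fitted value was 7.03, set against a single library at 0 counts, and is no bound. Without WT replicate 1, Fcer1g, Fgr, Fcgr3 and Syk passed as lower in addition to Lyn. Each genotype comparison shares its libraries with the R848 responses, so that none of these values is independent of the others. After R848 the monocyte and macrophage markers summed to 3932 to 4179 CPM in WT and 3777 to 3905 CPM in Padi4 KO libraries. Of 11 tested, 3 were higher and 2 lower in Padi4 KO cells, against 9.46% and 7.81% of all genes. Ccr2 had 14 and 15 against 51 and 61 counts, and Nr4a1 352 and 453 against 329 and 290. Of the 11 neutrophil markers 9 were lower. The part of such cells was not tested.

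**Figure D3:**
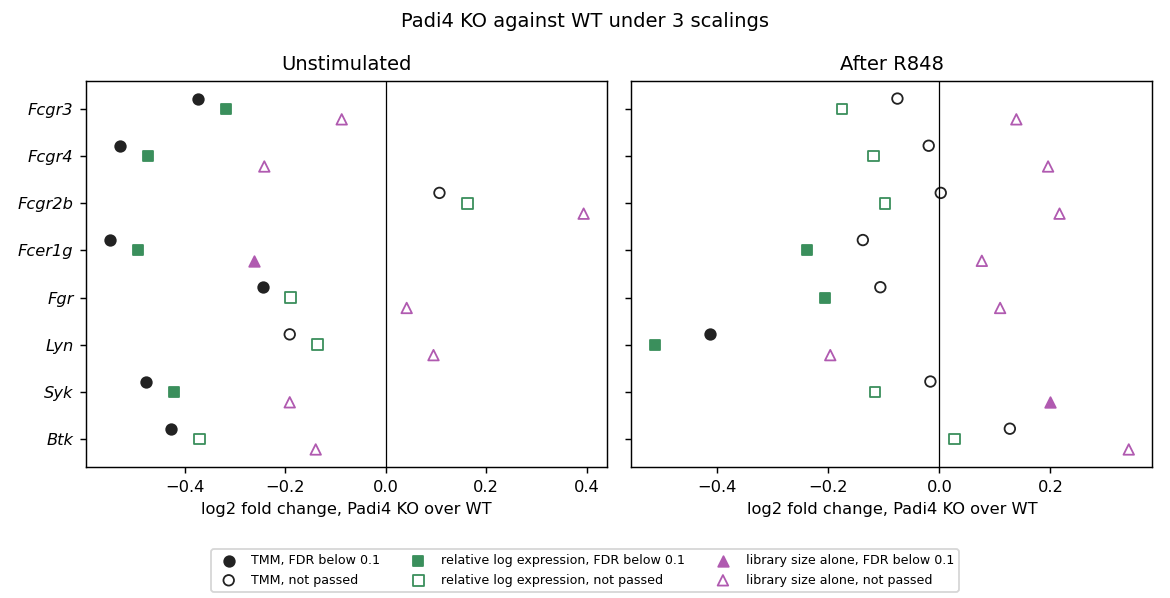
Log2 fold change of Padi4 KO over WT (horizontal axis) for 8 of the genes without stimulation (left) and after R848 (right), with TMM factors (circles), relative log expression factors (squares) and library size alone (triangles), filled where the adjusted p is below 0.1. Fcer1g is filled in all 3 scalings without stimulation, and after R848 Lyn lies left of the other genes in each scaling, at -0.41, -0.51 and -0.20.

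Genes around these receptors and kinases were taken from 5 further lists. Their counts stand against the shares of all genes, which were 13.5% higher and 16% lower in the WT response and 19.2% and 15.9% in the Padi4 KO response. Between unstimulated genotypes the shares were 9.55% and 14.4%, and between stimulated ones 9.46% and 7.81%. Of 24 adaptors and effectors downstream of Syk, 12 rose and 2 fell with R848 in WT cells (median log2 fold change 0.37) and 15 rose and 2 fell in Padi4 KO cells (median 0.75). Bcl10, which joins Card9 and Malt1 in the complex that carries the Syk signal to NF-κB, rose in WT (1.30 ± 0.14) and in Padi4 KO cells (0.99 ± 0.12), while its partner Card9 fell in both (-1.16 ± 0.19 and -0.88 ± 0.14). Pik3r1, the regulatory subunit of phosphoinositide 3-kinase, fell in WT cells (-1.73 ± 0.27) and had -0.29 ± 0.20 in Padi4 KO cells (adjusted p = 0.305). The protein kinases C Prkcd (0.91 ± 0.09 in WT and 1.42 ± 0.08 in Padi4 KO cells) and Prkcb (0.61 ± 0.10 and 1.24 ± 0.09), the adaptor Lcp2 (0.90 ± 0.12 and 1.03 ± 0.10) and Ncf1, the p47phox subunit of the NADPH oxidase (0.77 ± 0.07 and 1.28 ± 0.07), rose in both genotypes. Without stimulation 14 of the 24 were lower in Padi4 KO than in WT cells, among them Ncf1 (-0.80 ± 0.07), Prkcb (-0.76 ± 0.10), Prkcd (-0.60 ± 0.09) and the GTPase Rac2 (-0.44 ± 0.07). After R848, 5 were lower and 3 higher, with Ncf1 (-0.29 ± 0.06), Bcl10 (-0.45 ± 0.12) and the DAP12 adaptor Tyrobp (-0.26 ± 0.08) lower and the phosphoinositide 3-kinase subunit Pik3cd higher (0.27 ± 0.09). Pik3cd was lost with DESeq2 (0.18, adjusted p = 0.537), with relative log expression factors (0.17) and without WT R848 replicate 1 (0.025), Padi4 KO R848 replicate 1 (0.14) or replicate 2 (0.20). With library size alone Ncf1, Bcl10 and Tyrobp did not pass after R848, nor Rac2 without stimulation. Of the 11 neutrophil markers, 10 were lower in Padi4 KO cells without stimulation and 9 after R848, and their part here was not tested.

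Of 17 genes listed for restraint of the pathway, 10 rose and 2 fell in WT cells (median log2 fold change 0.58, where 13.5% of all genes were higher and 16% lower) and 14 rose and 1 fell in Padi4 KO cells (median 0.94, against 19.2% and 15.9%). The largest of the named changes were those of the inhibitory lectin Siglece (2.61 ± 0.10 in WT and 2.61 ± 0.09 in Padi4 KO cells) and the phosphatase Ubash3b, which acts on Syk (2.64 ± 0.23 and 3.04 ± 0.19). The phosphatase SHP-1 gene Ptpn6 rose as well (1.58 ± 0.08 and 1.54 ± 0.08), as did Ptprj, from a mean of 266 to 751 CPM in WT and from 147 to 692 CPM in Padi4 KO cells. Ptprj and Ptprc, which encodes CD45, are also known to activate Src family kinases by removing their inhibitory phosphate. Without stimulation 10 of the 17 were lower in Padi4 KO cells, against 14.4% of all genes, and 1 was higher, with Ptprj (-0.85 ± 0.13), Ptprc (-0.69 ± 0.08) and Dok3 (-0.65 ± 0.10) lower. After R848, 7 were lower, against 7.81% of all genes, including Ptprc (-0.53 ± 0.08), Ptpn6 (-0.39 ± 0.07) and Siglece (-0.28 ± 0.08), and 2 were higher. Ptpn6 and Siglece did not pass after R848 with library size alone. In the same genotype comparisons 10 of the 11 neutrophil markers were lower without stimulation and 9 after R848, and their part was not tested.

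A further list was named other ITAM coupled receptors, and the coupling of each gene on it was not examined. Of the 13 genes tested, 8 rose and 1 fell in WT cells (median log2 fold change 0.84). In Padi4 KO cells 8 rose and 3 fell (median 0.63). After R848, 10 of the 13 were lower in Padi4 KO cells (median -0.58), against 7.81% of all genes, and 9 of the 11 neutrophil markers were lower in the same comparison. The Fcer1g-coupled lectins Clec4d and Clec4e had mean levels of 1918 and 1246 CPM in R848-treated WT and of 1111 and 828 CPM in R848-treated Padi4 KO cells (-0.78 ± 0.08 and -0.58 ± 0.08), and Clec4n, the dectin-2 gene, had 244 against 82.8 CPM (-1.55 ± 0.15). Trem1, which signals through Tyrobp, had 901 against 342 CPM (-1.39 ± 0.09). Without stimulation 6 were lower in Padi4 KO cells, among them Trem3 (-0.58 ± 0.11), Clec5a (-0.57 ± 0.13), Clec4d (-0.51 ± 0.12) and Treml2 (-0.47 ± 0.12). Pilrb1 rose with R848 in both genotypes (1.77 ± 0.14 in WT and 1.52 ± 0.13 in Padi4 KO cells). With library size alone Clec4d, Clec5a and Treml2 did not pass without stimulation, and Treml2 was also lost with DESeq2 and without unstimulated Padi4 KO replicate 2.

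Of 10 other Src and Tec family kinases and their regulators tested, 2 rose and 1 fell in WT cells (median 0.12) and 4 rose and 1 fell in Padi4 KO cells (median 0.85). A mean of at least 10 counts was reached by 5 of the 10, so these medians include genes with very few counts. The Tec family kinase Bmx fell from a mean of 182 to 24.1 CPM in WT (log2 fold change -2.94 ± 0.25) and from 127 to 21.7 CPM in Padi4 KO cells (-2.55 ± 0.20). Pag1, the adaptor that brings the Src inhibitor Csk to the membrane, rose in WT (0.54 ± 0.10) and in Padi4 KO cells (1.15 ± 0.09). Before stimulation Pag1 (-0.64 ± 0.10) and Bmx (-0.51 ± 0.14) had lower levels in the Padi4 KO libraries. Bmx was lost there with DESeq2 and with library size alone. Of 13 other Fc receptors 7 were tested, and 2 of them had a mean of at least 10 counts. On this list 1 rose and 1 fell in Padi4 KO cells, and 0 passed in WT cells, where 1 was higher and 1 lower at an unadjusted p below 0.05.

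**Figure D4:**
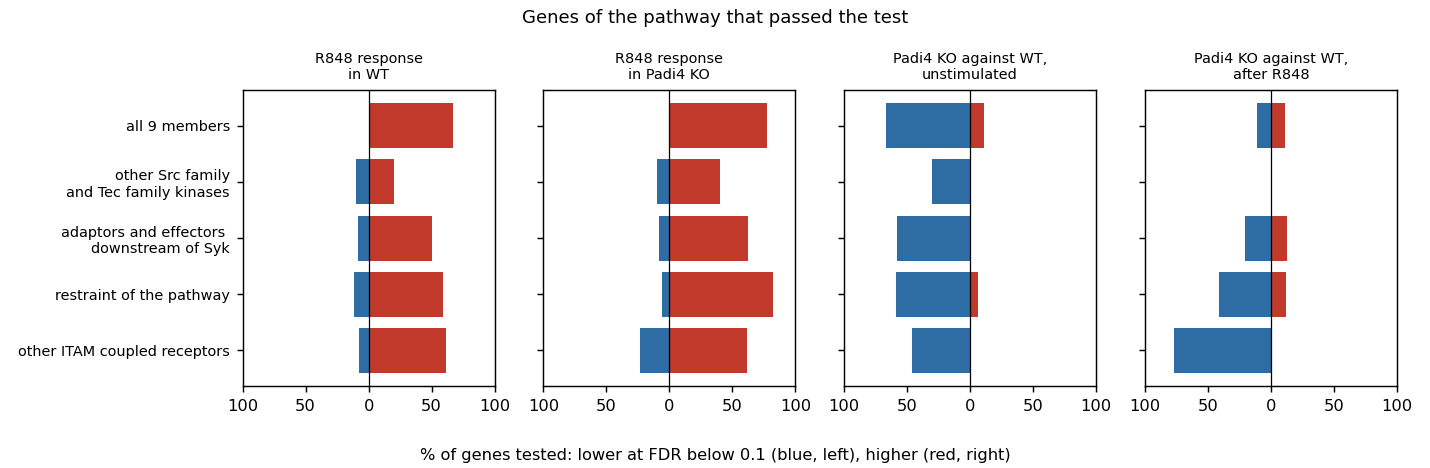
Percent of the tested genes of each list that were lower (blue, left) or higher (red, right) at an adjusted p below 0.1, in the 2 R848 responses and the 2 genotype comparisons. The 9 Fc receptor and kinase genes have 6 and 7 higher and 0 lower members in the responses, and the other ITAM coupled receptors have 10 of 13 genes lower in Padi4 KO cells after R848.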

How the data were processed

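The deposited file is a table of counts per gene and library. Per the submitters' processing notes, the authors used FastQC 0.11.7, cutadapt 1.16, STAR 2.5.3a and HTSeq 0.6.1p1 on mm10, from paired-end reads of libraries made with an Illumina RNA kit, and the methods keep genes with at least 1 count in 2 libraries and call changes at a false discovery rate below 0.1 and over 2-fold. The deposited counts were taken as they are. Of all assigned and unassigned counts, 87.0% to 89.5% fell on genes, and the HTSeq summary lines for reads without a feature or with an ambiguous one were left out. Members and lists were chosen with earlier results of these data known.

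With edgeR 4.0.16 (R 4.3.3, limma 3.58.1), 1 robust quasi-likelihood model with TMM factors and 1 mean per group was fitted to the 8 libraries and 12254 genes, with Benjamini-Hochberg adjustment over all genes and the same minimum of 1 count in 2 libraries. "Rose", "fell", "higher" and "lower" as calls mean an adjusted p below 0.1. DESeq2 1.42.0, other scalings, filters and fits were alternatives. CPM values in the text are scaled by the TMM factors, marker sums by the library total. The biological coefficient of variation was 4.68%. Duplicates differed by more than sampling noise in every group (chi-square per degree of freedom 1.05 to 1.67), and the replicate numbers did not pair the groups (correlations of deviations -0.02 to 0.02). Apart from the 9 genes, up to 4 genes with the smallest p were named per list and comparison among those called (for the responses also over 2-fold) with a mean of at least 10 counts, and 2 genes that this rule names are not reported here. Sequence shared between genes was found as identical 50-base stretches of annotated transcripts. On simulated counts, with 100 genes changed by each size among 11920 genes tested, the WT response recovered 59 of 100 genes changed by 1 on the log2 scale and 92 of 100 changed by 2, and the difference of response 48 and 90. Of the simulated calls, 7.36% were false in the WT response and 11.5% in the difference of response. In the measured counts 1657 genes were higher and 1964 lower in the WT response, and the TMM factors ran from 0.80 to 1.25. Whether the recovery and the false share hold for the measured counts was not tested.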

Additional observations from a re-analysis of the deposited data

Results flagged for a closer look

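Among the Fc receptor and kinase genes, Fcer1g (0.41 on the log2 scale) and Syk (0.46) differed in their R848 response between Padi4 KO and WT cells by the interaction test, both with a larger rise in Padi4 KO cells, and the limits of these calls are given with them above. The same test picked out 13 named genes of the surrounding lists, where at most 4 were named per list. By list, it called 2 of 10 Src and Tec family genes, 5 of 24 adaptors and 4 of 17 restraint genes higher. On the list of ITAM coupled receptors it called 3 of 13 lower. Of all genes tested, 3.45% were higher and 1.26% lower. The log2 fold change was higher in Padi4 KO cells for Pag1 (0.61), Csk (0.51), Ncf1 (0.51), Prkcb (0.64), Prkcd (0.52), Pik3r1 (1.45), Dok3 (0.78), Ptprj (0.73), Cbl (0.64) and Pirb (0.44). It was lower in Padi4 KO cells for the receptors Trem1 (-1.33), Clec4e (-0.69) and Clec7a (-0.77). Dok3 and Pirb had lower mean levels after R848 in WT cells (493 to 396 and 940 to 881 CPM) and higher ones in Padi4 KO cells (313 to 435 and 703 to 892 CPM). Trem1 rose from a mean of 230 to 901 CPM in WT cells and had 224 and 342 CPM in Padi4 KO cells. Of these 13 genes, 5 passed with DESeq2 (Ncf1, Dok3, Ptprj, Trem1 and Clec4e), 11 with relative log expression factors (without Csk and Pirb) and 12 with library size alone (without Csk). Csk was lost without any 1 of the 8 libraries (0.13 to 0.58). Without Padi4 KO R848 replicate 1, 4 passed (Dok3, Trem1, Clec4e and Clec7a), without Padi4 KO R848 replicate 2 or WT R848 replicate 1, 5 passed in each case, and Trem1 and Clec4e were the only 2 of the 13 that passed under every alternative run.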

How the results depend on the processing

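Library size alone moved the most calls: 2 members were then lower and 3 over 2-fold higher in the WT response, 1 lower and 3 over 2-fold higher in the Padi4 KO response, 1 had a larger rise in Padi4 KO cells, and 1 was lower without and 0 with R848 in the genotype comparisons, where 2 were higher after R848. Its values changed sign for Fcgr3 (-0.27) and Btk (-0.13) in the Padi4 KO response, for Fgr (0.042) and Lyn (0.095) between unstimulated genotypes, and for Fcgr3 (0.14), Fcgr4 (0.20), Fcer1g (0.077), Fgr (0.11) and Syk (0.20) after R848. By construction it leaves out the TMM factors. DESeq2 gave 0 members for a larger rise in Padi4 KO cells, 0 higher and 2 lower between unstimulated genotypes and 0 higher after R848, and relative log expression factors gave 0 with a larger and 1 with a smaller rise, and 3 lower after R848. The difference of response was -0.022 for Fcgr1 and -0.017 for Fgr with DESeq2 and -0.017 for Fgr with relative log expression factors, and Fcgr2b after R848 was -0.094 and -0.098. The filter filterByExpr gave 1 lower member in the WT response. The cause was not tested.

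Over the removal of each library in turn, the WT response had 6 to 6 higher, 3 to 6 over 2-fold higher and 0 to 0 lower members, and the Padi4 KO response 6 to 7, 4 to 6 and 0 to 0. Differences of response numbered 0 to 2 higher and 0 to 1 lower, the unstimulated genotypes 0 to 1 higher and 3 to 4 lower, and the stimulated genotypes 0 to 1 higher and 1 to 5 lower. Signs changed in the WT response for Fcgr1 (-4.16 to 1.78) and Fcgr3 (-0.21 to 0.0063), in the Padi4 KO response for Fcgr3 (-0.087 to 0.12), in the difference for Fcgr1 (-1.08 to 4.85), Fcgr2b (-0.48 to 0.098), Fcgr3 (-0.039 to 0.32) and Fgr (-0.12 to 0.16), and between genotypes for Fcgr2b (-0.096 to 0.32 without and -0.24 to 0.047 with R848) and Btk (-0.079 to 0.13 with R848).

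With the replicate block, the count of higher members in the Padi4 KO response was 6 instead of 7, since Fcgr1 no longer passed (0.74, adjusted p = 0.152), and no other member call changed. Over all genes, the difference of response had 423 higher and 154 lower genes, against 35 and 90 with DESeq2, 160 and 233 with relative log expression factors and 255 and 170 with library size alone. Without 1 library it had 51 to 293 higher and 98 to 350 lower genes, and without any 1 of the R848-treated libraries more were lower than higher (51 and 246 without WT R848 replicate 1, 121 and 350 without WT replicate 2, 67 and 228 without Padi4 KO replicate 1, 69 and 199 without Padi4 KO replicate 2). The unstimulated genotypes had 1170 higher and 1763 lower genes, against 475 and 586 with DESeq2, 1901 and 561 with library size alone and 1642 and 1226 in a fit of those libraries alone, and the stimulated genotypes 1159 and 957, against 387 and 621, 1870 and 417 and, with relative log expression factors, 990 and 1359. Without 1 library the unstimulated genotypes had 778 to 1600 higher and 1116 to 1412 lower genes. More were higher than lower without any 1 of the R848-treated libraries (1549 and 1246 without WT R848 replicate 1, 1600 and 1183 without WT replicate 2, 1434 and 1116 without Padi4 KO replicate 1, 1424 and 1130 without Padi4 KO replicate 2). The stimulated genotypes had 648 to 1180 higher and 920 to 1119 lower genes, and more were lower than higher without any 1 of the same libraries (648 and 1119, 661 and 1050, 741 and 1034, 785 and 1069, in that order). The responses had 1657 and 1964 genes in WT and 2352 and 1947 in Padi4 KO cells, against 1285 and 979 and 1206 and 915 with DESeq2, 1807 and 1740 and 2059 and 2288 with relative log expression factors, and 1075 and 3127 and 1264 and 3823 with library size alone. Without 1 library they had 1381 to 1843 higher and 1223 to 1951 lower genes in WT and 1531 to 2349 higher and 1414 to 2609 lower genes in Padi4 KO cells, and without any 1 of the R848-treated libraries the balance turned in both (in the order used above, 1656 and 1263, 1645 and 1223, 1842 and 1642, 1843 and 1640 in WT, and 1936 and 2609, 1967 and 2573, 1531 and 1859, 1611 and 1828 in Padi4 KO cells). Depth limits Fcgr1 most, with 0 to 4 counts in the WT libraries.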

Other observations

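For each of the 9 genes, the other genes whose log2 CPM followed it most closely over the 8 libraries were listed by Pearson's r among the genes with a mean of at least 10 counts. The 8 libraries fall into 4 groups and share the same scaling, so that these values describe the order of the groups and carry no p. Fgr was nearest to Rnf19b (r = 0.999) and Wdfy3, Fcer1g to Prdx5 (0.999) and Vasp, Fcgr4 to Lst1 (0.998) and Ric1, and Fcgr2b to Prkd3 (0.998) and to Lair1 (0.997), which encodes an inhibitory collagen receptor. Syk was nearest to Asprv1 (0.996) and to the protein kinase C gene Prkcd (0.996), and Lyn to Snap23 (0.994) and Rnf11. The genes with little or no response had looser neighbours, with Ubp1 (0.985) and Aldh3b1 for Fcgr3, Rgp1 (0.967) and Mgat1 for Btk and, at counts near the limit, Sept11 (0.974) and Ccnf for Fcgr1.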
